A study of Mus musculus with 15 samples.

Results

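The genes described here encode the proteasome: its core and regulatory particle subunits and the assembly chaperones that carry the same symbol stem. Members were the genes whose symbol is Psma, Psmb, Psmc or Psmd followed by a number, without the immunoproteasome genes Psmb8, Psmb9 and Psmb10, that averaged at least 1 CPM (a gene's counts as a share of all counts assigned to genes, scaled to 1000000) over the 15 libraries. Of 24411 genes in the count tables, 36 symbols fitted the pattern and 34 passed; the rule used no difference between groups. The other two were Psma8, with 3 to 18 counts per library and a mean of 0.638 CPM, and Psmb11, with 0 counts in every library. All 34 members also passed the filter on low counts that preceded the tests. The libraries are polyA RNA-seq of liver from male FVB/NJ mice, in 5 groups of 3. Per the labels, CTNNB1_NFE2L2_MET livers carried S45Y-mutant CTNNB1 (an activated β-catenin), G31A-mutant NFE2L2 (NRF2, altered in the segment that KEAP1 binds) and human MET (hMET, a growth factor receptor). CTNNB1_NFE2L2 livers carried both mutant genes without hMET, NFE2L2_MET livers carried G31A-NFE2L2 with hMET, and CTNNB1_MET livers carried S45Y-CTNNB1 with hMET. WT was wild-type liver. All groups share strain and sex. The labels give no age, promoter, delivery vector or time after delivery, and they do not say that the libraries of a group came from separate animals, so p-values measure the spread between libraries, which may in part be technical.

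The proteasome degrades proteins tagged with ubiquitin. Its barrel-shaped core has outer α rings, whose tails gate the entrance, and inner β rings, which hold the catalytic sites. A cap on the core recognises the tagged protein, removes the ubiquitin in its lid, and unfolds and threads the chain with a ring of ATPases in its base; dedicated chaperones assemble that base. NRF1 (Nfe2l1) induces subunit genes together when proteasome activity falls, and NRF2 (Nfe2l2) is known to raise some of them, Psmb5 among these, when it escapes KEAP1. Both factors bind antioxidant response elements with small MAF partners.

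The promoters of the 3 base assembly chaperones and of the catalytic subunit gene Psmb5 are shown, since both factors act through promoter DNA. These 4 genes are among the 6 members whose group means differed most, and those of Psmd11 and Psmd8 are not shown. Each sequence is the RefSeq window of 300 bases (GRCm38.p6), read 5′ to 3′ on the gene's strand, with every match to the antioxidant response element core TGACNNNGC, on either strand, in capitals. The windows are Psmd5 (chr2:34870913-34871212, minus strand), Psmb5 (chr14:54617946-54618245, minus strand), Psmd10 (chrX:140956662-140956961, minus strand) and Psmd9 (chr5:123227940-123228239, plus strand).
Psmd5: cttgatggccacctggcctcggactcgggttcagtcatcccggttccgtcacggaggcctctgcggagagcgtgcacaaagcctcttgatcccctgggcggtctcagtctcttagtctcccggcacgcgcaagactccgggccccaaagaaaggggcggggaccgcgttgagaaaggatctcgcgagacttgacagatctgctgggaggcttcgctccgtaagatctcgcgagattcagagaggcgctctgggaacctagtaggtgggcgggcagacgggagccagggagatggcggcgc
Psmb5: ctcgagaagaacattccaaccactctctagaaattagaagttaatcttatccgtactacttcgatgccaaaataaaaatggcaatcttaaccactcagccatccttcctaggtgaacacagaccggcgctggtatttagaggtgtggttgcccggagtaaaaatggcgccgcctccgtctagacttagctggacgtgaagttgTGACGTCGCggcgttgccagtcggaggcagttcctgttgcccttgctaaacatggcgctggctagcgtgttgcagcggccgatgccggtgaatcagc
Psmd10: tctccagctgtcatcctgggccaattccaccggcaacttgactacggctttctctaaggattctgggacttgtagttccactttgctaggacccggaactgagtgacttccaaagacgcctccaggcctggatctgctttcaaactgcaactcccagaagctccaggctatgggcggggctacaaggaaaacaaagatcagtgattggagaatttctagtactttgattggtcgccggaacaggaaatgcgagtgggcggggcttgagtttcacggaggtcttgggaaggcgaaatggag
Psmd9: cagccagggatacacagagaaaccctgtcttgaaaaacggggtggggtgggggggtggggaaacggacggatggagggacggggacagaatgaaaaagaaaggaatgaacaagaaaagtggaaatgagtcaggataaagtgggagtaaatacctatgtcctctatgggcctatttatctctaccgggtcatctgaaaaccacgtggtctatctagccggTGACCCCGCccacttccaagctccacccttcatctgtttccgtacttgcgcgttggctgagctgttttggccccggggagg

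Psmb5 held 1 match, TGACGTCGC, at -47 to -39 from the start site, and Psmd9 held 1, TGACCCCGC, at -31 to -23; the letters were in neither the Psmd5 nor the Psmd10 window. Of the 28 members with a promoter in the table, 5 (17.86%) held a match, against 3781 of 27025 genes (13.99%) in the whole table; counted by promoter window the share of all 32851 was 12.39%. A list of known NRF2 target genes had a match in 9 of 17 genes (52.94%). The other members with a match were Psmb6, Psmc6 and Psmd12. In CTNNB1_NFE2L2_MET against CTNNB1_MET the log2 fold changes of the 5 genes were 0.81 for Psmb5, -0.14 for Psmb6, 0.16 for Psmc6, 0.18 for Psmd12 and -0.79 for Psmd9, of which those of Psmb5 and Psmd9 passed the test described below. A match describes letters in the window and was not tested for binding.

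Counts assigned to genes ran between 14084343 and 20702618 per library, and each member had at least 163 counts in every library. The share of unmapped reads averaged 10.3 ± 1.41% in CTNNB1_NFE2L2_MET, 10.7 ± 1.03% in CTNNB1_NFE2L2, 13.7 ± 0.878% in NFE2L2_MET, 17.2 ± 1.749% in CTNNB1_MET and 22.9 ± 3.05% in WT (SD, n = 3 each), so it differed with the groups and cannot be told apart from them. CPM from here on use library totals scaled by TMM factors, which align the bulk of genes between libraries. Replicate 3 of CTNNB1_NFE2L2_MET, of CTNNB1_MET and of WT are marked in the labels as added libraries. Nqo1, a standard NRF2 target that checks the NFE2L2 labels, averaged 268 ± 23.7 CPM in CTNNB1_NFE2L2_MET, 248 ± 4.52 in CTNNB1_NFE2L2, 100.6 ± 23.9 in NFE2L2_MET, 9.14 ± 1.78 in CTNNB1_MET and 5.38 ± 0.489 in WT. Nfe2l2 counts passed the test in none of the 10 comparisons between groups (edgeR, adjusted p from 0.0682 upward); whether transcripts of the transgene were counted there was not tested. Hepatocyte markers, Alb among them, were abundant in every library, with summed CPM of 77225 to 84748 in CTNNB1_NFE2L2_MET, 34616 to 44530.5 in CTNNB1_NFE2L2, 155126 to 203308 in NFE2L2_MET, 153482 to 158187 in CTNNB1_MET and 92699 to 118566 in WT. In bulk libraries such as these, fewer cells of a type and less RNA per cell cannot be told apart.

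The summed CPM of the 34 members averaged 3559 ± 136 in CTNNB1_NFE2L2_MET, 3474 ± 70.4 in CTNNB1_NFE2L2, 3184 ± 102 in NFE2L2_MET, 3203 ± 39.6 in CTNNB1_MET and 3573 ± 222 in WT (SD, n = 3 each). Those sums ranged over 3402 to 3646 CPM in CTNNB1_NFE2L2_MET, 3394 to 3527 in CTNNB1_NFE2L2, 3094 to 3296 in NFE2L2_MET, 3165 to 3244 in CTNNB1_MET and 3368 to 3808 in WT. Each of the CTNNB1_NFE2L2_MET, CTNNB1_NFE2L2 and WT libraries lay above every NFE2L2_MET and CTNNB1_MET library. The ratio of the highest to the lowest group mean had a median of 1.28 over the members and reached 1.5 in 6 of them: Psmd5 (2.72), Psmb5 (1.90), Psmd9 (1.73), Psmd11 (1.67), Psmd8 (1.60) and Psmd10 (1.501). All 3 base assembly chaperones are among these. Per kilobase of transcript, the chaperones were also the 3 lowest members in CTNNB1_NFE2L2_MET, with 13.0 CPM per kb for Psmd10, 13.1 for Psmd9 and 16.9 for Psmd5, and in WT, with 6.21 for Psmd5, 8.66 for Psmd10 and 20.02 for Psmd9. At the upper end, core subunit genes stood highest: Psma7 had 217 and Psmb4 175 CPM per kb in CTNNB1_NFE2L2_MET, and Psmb6 had 184 and Psma7 162 in WT.

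**Figure D1:**
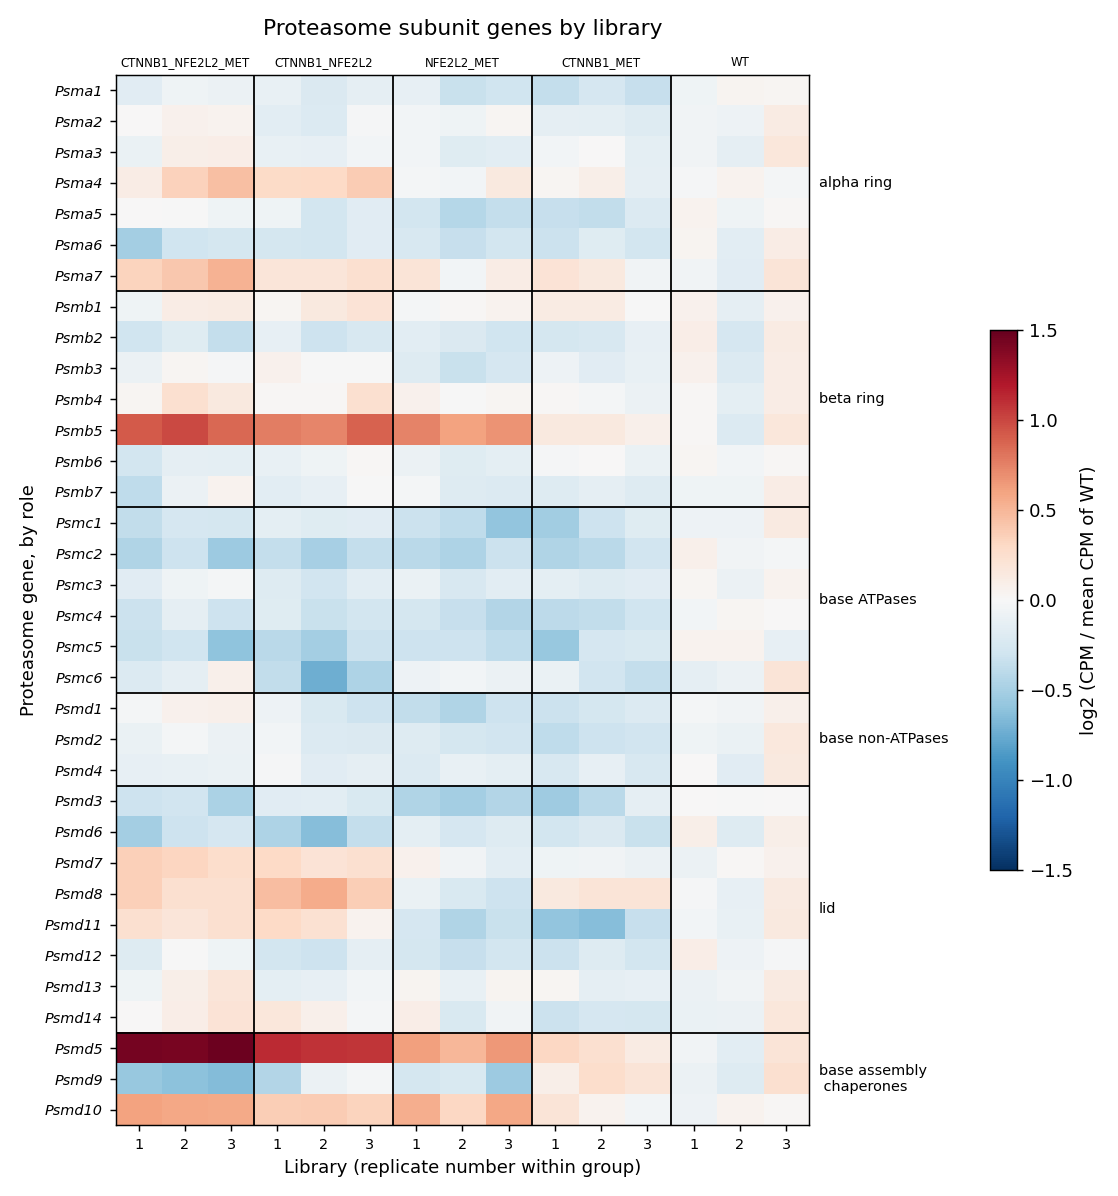
Level of each of the 34 members (rows, by role) in each of the 15 libraries (columns), as log2 of CPM over the mean CPM of the 3 WT libraries. Most rows are close to 0; Psmd5, Psmb5 and Psmd10 are above WT in the 3 NFE2L2 models, where their fold changes passed the test.

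The comparison of CTNNB1_NFE2L2_MET with CTNNB1_MET asks what mutant NFE2L2 adds to mutant CTNNB1 and hMET. The base chaperone gene Psmd5 was 2.32-fold, the catalytic subunit gene Psmb5 1.749-fold and the lid gene Psmd11 1.67-fold higher, while the base chaperone gene Psmd9 was lower at 0.577 of its CTNNB1_MET level. With edgeR's quasi-likelihood test, Benjamini-Hochberg adjustment over 14098 genes and a threshold of 0.05, 11 of 34 members rose and 1 fell. Over all genes 18.4% were called higher and 15.4% lower, and the members' median log2 fold change was 0.12, against -0.01 over all genes. By role, 3 of 7 α subunits, 1 of 7 β subunits, 0 of 6 ATPases, 2 of 3 other base subunits and 3 of 8 lid subunits rose, and of the 3 base chaperones 2 rose and 1 fell. At an unadjusted p under 0.05, 0 of the ATPase genes passed, and DESeq2 called 0 of them. Scaling by total counts in place of edgeR's TMM factors moves the median of all genes to 0.26 on the log2 scale; the members called were then 25 higher and 1 lower. Under that scaling 35.2% of all genes were called higher and 7.36% lower. It also called 4 of the 6 ATPase genes higher. With the unmapped share as a term, 2 members were called higher and 0 lower, Psmb5 and Psmd5 being those called. With this term 2.58% of all genes were called higher and 1.51% lower.

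Psmd5 encodes a chaperone that holds base ATPases during assembly and is not part of the finished particle. It had 73.7, 73.4 and 75.7 CPM in CTNNB1_NFE2L2_MET livers, against 33.9, 32.3 and 29.8 CPM in CTNNB1_MET livers. Every CTNNB1_NFE2L2_MET library was above every CTNNB1_MET library, 2.32-fold on average (log2 fold change 1.21 ± 0.09, adjusted p = 2.66e-07; ± is the SE after a log2 fold change and the SD after CPM). Psmd10, the chaperone gankyrin, which is known from human liver cancer, had 18.8, 18.6 and 18.4 CPM in CTNNB1_NFE2L2_MET, against 14.2, 12.9 and 12.01 CPM in CTNNB1_MET, a log2 fold change of 0.51 ± 0.10 (adjusted p = 0.00125). Psmd9, the remaining base chaperone, moved the other way. It had 35.2, 34.0 and 33.2 CPM in CTNNB1_NFE2L2_MET, against 55.2, 62.5 and 59.6 CPM in CTNNB1_MET, again without overlap (log2 fold change -0.79 ± 0.13, adjusted p = 0.000287). Over all genes tested, 25.5% had every CTNNB1_NFE2L2_MET library above every CTNNB1_MET library and 24.1% had every one below. As a share of all member counts, Psmd5 made up 2.17%, 2.01% and 2.08% in CTNNB1_NFE2L2_MET and 1.07%, 0.996% and 0.932% in CTNNB1_MET, while Psmd9 made up 1.03%, 0.934% and 0.914% in CTNNB1_NFE2L2_MET and 1.745%, 1.93% and 1.86% in CTNNB1_MET. Psmd5 was the smaller of the pair in WT, at 0.741%, 0.728% and 0.820%, against 1.38%, 1.35% and 1.62% for Psmd9.

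Of the 3 constitutive catalytic β subunits, only Psmb5, which cuts after bulky hydrophobic residues, passed the test. Psmb5 had 48.4, 50.8 and 46.6 CPM in CTNNB1_NFE2L2_MET, against 28.3, 28.2 and 26.9 CPM in CTNNB1_MET, 1.749-fold higher (log2 fold change 0.81 ± 0.09, adjusted p = 1.74e-05). Psmb6, which cuts after acidic residues, had 121.8, 134 and 133 CPM in CTNNB1_NFE2L2_MET and 145, 148 and 137 CPM in CTNNB1_MET, lower in each library but not past the test (log2 fold change -0.14 ± 0.08, adjusted p = 0.177). Psmb7, which cuts after basic residues, had 133, 162 and 179 CPM in CTNNB1_NFE2L2_MET and 151, 157 and 151 CPM in CTNNB1_MET (log2 fold change 0.04 ± 0.11, adjusted p = 0.79). The β ring member with the largest p was Psmb1, a structural subunit, at -0.02 ± 0.09 (adjusted p = 0.888). Counts of Psmb5 as a share of the summed counts of the 6 other β subunits were 6.86%, 6.30% and 5.83% in CTNNB1_NFE2L2_MET, 5.72%, 5.52% and 5.65% in CTNNB1_NFE2L2, 5.60%, 5.38% and 5.55% in NFE2L2_MET, 3.70%, 3.70% and 3.66% in CTNNB1_MET and 3.23%, 3.05% and 3.42% in WT. This share does not depend on the scaling between libraries, and each of the 9 libraries with mutant NFE2L2 exceeded each of the 6 without it. Other shares of counts were not compared in this way. By CPM and pair by pair, the percent of all genes above in every library ran from 18.7% (NFE2L2_MET against CTNNB1_MET) to 29.2% (CTNNB1_NFE2L2_MET against WT).

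**Figure D2:**
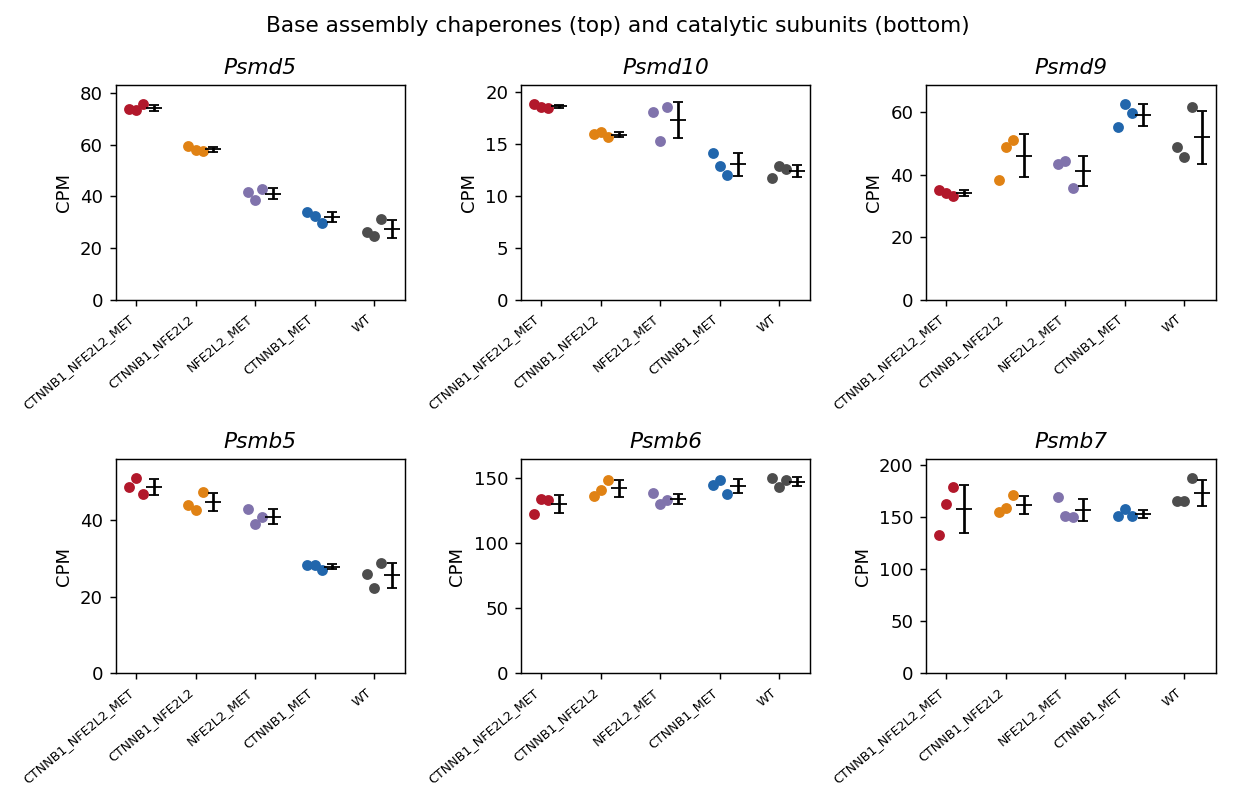
CPM of the base assembly chaperones Psmd5, Psmd10 and Psmd9 (top) and the catalytic β subunits Psmb5, Psmb6 and Psmb7 (bottom) by group; points are libraries and bars are mean ± SD of 3. Psmd5 and Psmb5 are higher in each NFE2L2 model than in CTNNB1_MET and WT, Psmd9 is lowest in CTNNB1_NFE2L2_MET, and Psmb6 and Psmb7 were not called in CTNNB1_NFE2L2_MET against CTNNB1_MET.

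In the lid, Psmd11 (Rpn6, a scaffold between lid and core), Psmd14 (Rpn11, the deubiquitinase) and Psmd7 (Rpn8, its partner) rose. The Psmd11 gene lies on the plus strand of chromosome 11 from 80428615 to 80473248 (GRCm38). It had 105.2, 100.5 and 105.2 CPM in CTNNB1_NFE2L2_MET, against 59.0, 57.3 and 69.8 CPM in CTNNB1_MET, 1.67-fold higher (log2 fold change 0.74 ± 0.10, adjusted p = 7.78e-05). Psmd7 had 119.96, 117.6 and 113 CPM in CTNNB1_NFE2L2_MET, against 89.5, 90.4 and 88.4 CPM in CTNNB1_MET (log2 fold change 0.39 ± 0.08, adjusted p = 0.00196). Neither gene's groups overlapped. Psmd14 changed by 0.38 ± 0.10 (adjusted p = 0.0102), and Psmd3, the lid member with the largest p, by -0.01 ± 0.10 (adjusted p = 0.956). Of the base subunits without ATPase activity, the scaffolds Psmd1 and Psmd2 rose by 0.30 ± 0.09 and 0.26 ± 0.09 (adjusted p = 0.0141 and 0.0422), and the ubiquitin receptor Psmd4 was at 0.09 ± 0.09 (adjusted p = 0.464). The Psmd2 call, close to the threshold, was lost with RLE factors (0.0501), no low-count filter (0.0792), the single-strand counts (0.0529), only the libraries of the comparison (0.0705) and the added libraries left out (0.0572). It was also lost without any 1 of 11 libraries, among them all 6 of this comparison, with adjusted p of up to 0.121.

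In the α ring, Psma5 had 67.4, 66.5 and 64.3 CPM in CTNNB1_NFE2L2_MET, against 52.7, 51.8 and 58.3 CPM in CTNNB1_MET (log2 fold change 0.28 ± 0.08, adjusted p = 0.016). Psma4 had 122.2, 144 and 155 CPM in CTNNB1_NFE2L2_MET, against 115.9, 120.8 and 104 CPM in CTNNB1_MET (log2 fold change 0.31 ± 0.10, adjusted p = 0.0263). Neither gene's groups overlapped. Psma7, the highest of the α subunits per kilobase, changed by 0.32 ± 0.11 (adjusted p = 0.0343). Psma4 overlaps a gene on the opposite strand, and reads that fell on both genes are missing from its counts: over all libraries its 2 single-strand columns summed to 118.1% of the unstranded counts used here. Among the other members this sum was at most 100.2%, in Psmd13. Psmd5 overlaps Cutal and Psmd9 overlaps Hpd, which encodes an enzyme of tyrosine breakdown, each on the opposite strand, and for both members the sum equalled the unstranded counts. The remaining α subunits were between -0.09 and 0.21, and none of these 4 passed the test. Leaving out 1 library ended the call of Psma4 (adjusted p = 0.0782 without CTNNB1_NFE2L2_MET replicate 2, 0.112 without its replicate 3 and 0.109 without CTNNB1_MET replicate 3), of Psma5 (0.0518 without CTNNB1_NFE2L2_MET replicate 1, and 0.0515 and 0.0698 without CTNNB1_MET replicates 1 and 2) and of Psma7 (0.069 and 0.112 without CTNNB1_NFE2L2_MET replicates 2 and 3, and 0.0663 and 0.139 without CTNNB1_MET replicates 2 and 3). The Psma4 and Psma7 calls were also lost with the added libraries left out (log2 fold changes of 0.17 and 0.19, adjusted p = 0.277 and 0.197) and with only the libraries of the comparison (0.0741 and 0.0528), and that of Psma7 with no low-count filter (0.0503). Among the ATPases, which unfold the substrate, Psmc6 had 60.0, 63.0 and 73.1 CPM in CTNNB1_NFE2L2_MET and 64.7, 56.7 and 54.2 CPM in CTNNB1_MET (log2 fold change 0.16 ± 0.12, adjusted p = 0.322). Psmc4 was at 0.10 ± 0.08 (adjusted p = 0.392), and Psmc1, with the largest p of the 6, at 0.04 ± 0.10 (adjusted p = 0.803).

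**Figure D3:**
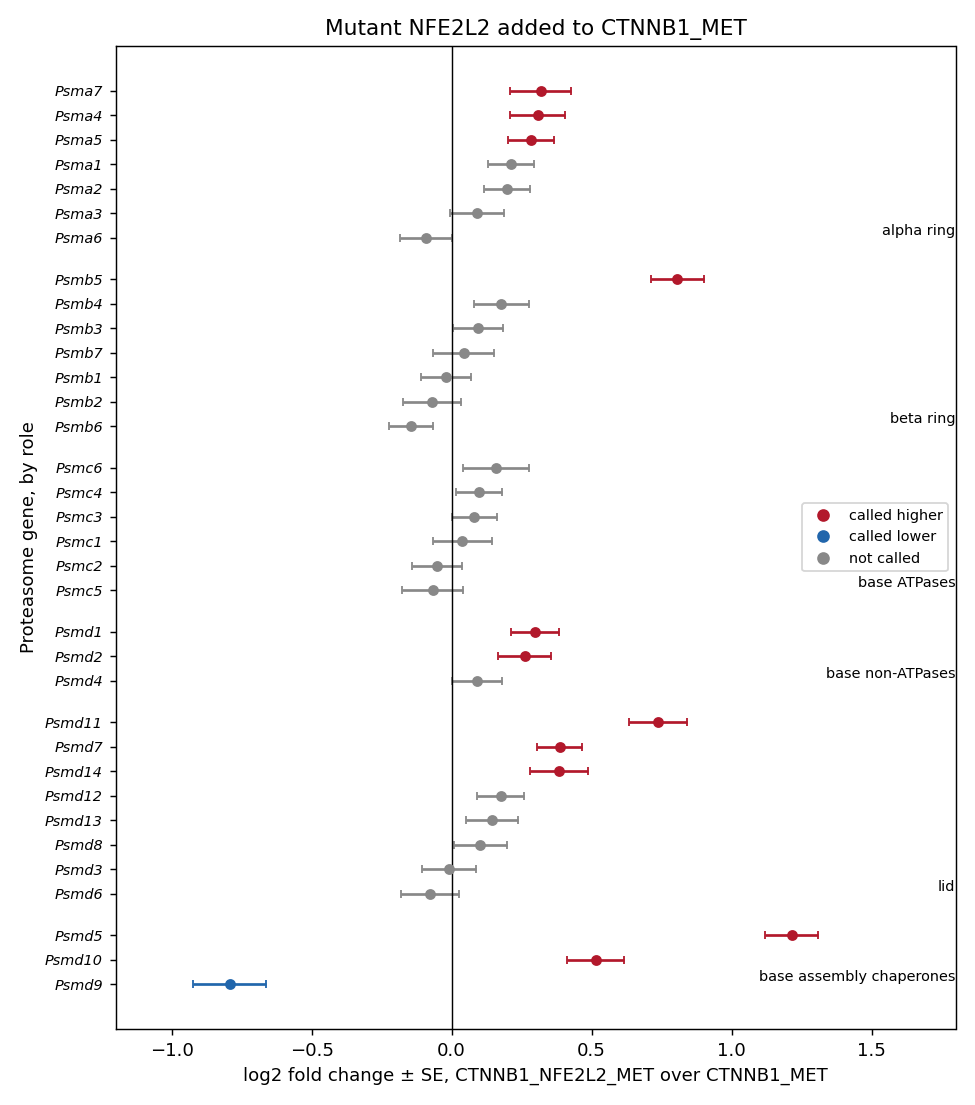
Log2 fold change ± SE of each member in CTNNB1_NFE2L2_MET against CTNNB1_MET, grouped by role; red is called higher, blue lower and grey not called. Psmd5 is highest at 1.21 and Psmd9 lowest at -0.79, and all 6 ATPases are grey.

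The 2 other NFE2L2 models can be set against the same CTNNB1_MET libraries, with mutant NFE2L2 in place of hMET or of mutant CTNNB1; the 3 comparisons share those controls and are not independent. In CTNNB1_NFE2L2, 8 members were higher than in CTNNB1_MET and 1 lower, where 17.9% and 17.2% of all genes were called. In NFE2L2_MET, 3 were higher and 2 lower, where 7.36% and 6.96% of all genes were. Psmb5 rose by 0.68 ± 0.09 in CTNNB1_NFE2L2 (adjusted p = 5.32e-05) and by 0.55 ± 0.09 in NFE2L2_MET (adjusted p = 0.000901). Without CTNNB1_NFE2L2 replicate 1, 5 members in place of 8 were higher in CTNNB1_NFE2L2. The CPM of Psmb5 were 43.7, 42.6 and 47.1 in CTNNB1_NFE2L2 and 42.7, 38.9 and 40.7 in NFE2L2_MET. Psmb5 kept its call in each of these comparisons under every alternative run and without any 1 library. Psmd5 rose by 0.87 ± 0.09 in CTNNB1_NFE2L2 (adjusted p = 4.3e-06), where it had 59.4, 57.9 and 57.7 CPM. In NFE2L2_MET it had 41.9, 38.6 and 42.8 CPM and rose by 0.36 ± 0.09 (adjusted p = 0.0167). That rise was no longer called without CTNNB1_MET replicate 3 (adjusted p = 0.077) or NFE2L2_MET replicate 1 (0.0569) or 3 (0.0623), and with total-count scaling (0.106), which moves the median of all genes to -0.10. With the unmapped share as a term its adjusted p was 0.0595.

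Psmd10 rose by 0.29 ± 0.10 in CTNNB1_NFE2L2 (adjusted p = 0.0395), where it had 15.9, 16.1 and 15.6 CPM, and by 0.41 ± 0.10 in NFE2L2_MET (adjusted p = 0.0138), where it had 18.0, 15.3 and 18.5 CPM. The first of these calls was lost on leaving out any 1 of 6 libraries (adjusted p of up to 0.138) and the second without CTNNB1_MET replicate 3 (0.0665) or NFE2L2_MET replicate 1 (0.058) or 3 (0.0625) and with total-count scaling (0.0983). With the added libraries left out both were lost (0.15 in CTNNB1_NFE2L2 and 0.0778 in NFE2L2_MET), and the first also with no low-count filter (0.0701), only the libraries of the comparison (0.0628) or a term for the added libraries (0.0682). Psmd9 fell by 0.36 ± 0.13 on the log2 scale in CTNNB1_NFE2L2 (adjusted p = 0.0412) and by 0.52 ± 0.13 in NFE2L2_MET (adjusted p = 0.0134). It was the only member called lower in CTNNB1_NFE2L2 against CTNNB1_MET. That call was lost without any 1 of 8 libraries and with RLE factors (0.0556), total-count scaling (0.369), DESeq2 (0.0548), no low-count filter (0.0502), the single-strand counts (0.0564), a term for the added libraries (0.0776) or these left out (0.0606). In NFE2L2_MET the Psmd9 call was lost without CTNNB1_MET replicate 2 (0.0571) or NFE2L2_MET replicate 3 (0.0657). Psmd9 had 38.3, 49.0 and 51.0 CPM in CTNNB1_NFE2L2 and 43.4, 44.5 and 35.7 CPM in NFE2L2_MET. Psmd11 had 109.9, 104.6 and 92.2 CPM in CTNNB1_NFE2L2 and 75.0, 64.9 and 70.9 CPM in NFE2L2_MET, with log2 fold changes over CTNNB1_MET of 0.72 ± 0.10 (adjusted p = 7.12e-05) and 0.18 ± 0.10 (adjusted p = 0.281). Psmd7 was at 0.32 ± 0.08 (adjusted p = 0.00688) and 0.02 ± 0.08 (adjusted p = 0.906) in the same order, and Psmd14 at 0.35 ± 0.10 (adjusted p = 0.0155) and 0.22 ± 0.10 (adjusted p = 0.174). The Psmd14 call in CTNNB1_NFE2L2 was lost without CTNNB1_MET replicate 1 (0.0542) or CTNNB1_NFE2L2 replicate 1 (0.062). Psmd8 (Rpn12), a lid subunit, was the member with opposite calls: 0.29 ± 0.09 (adjusted p = 0.0258) in CTNNB1_NFE2L2 and -0.39 ± 0.09 (adjusted p = 0.0121) in NFE2L2_MET. Its call was lost without any 1 of 5 libraries in CTNNB1_NFE2L2 and without NFE2L2_MET replicate 3 in NFE2L2_MET (0.0621).

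The comparison of CTNNB1_NFE2L2_MET with NFE2L2_MET asks what mutant CTNNB1 adds, and its test is also that of the difference between these 2 models. Here 8 members rose and 0 fell, where 16.4% of all genes were called higher and 14.3% lower, and the members' median was 0.11. Scaling by total counts moves the median of all genes to 0.38 and calls 32 members higher and 0 lower, where 43.5% of all genes were called higher and 5.64% lower. Psmd5 rose by 0.85 ± 0.09 (adjusted p = 7.83e-06), Psmd11 by 0.56 ± 0.10 (adjusted p = 0.000836), Psmd8 by 0.49 ± 0.09 (adjusted p = 0.00119), Psmd1 by 0.41 ± 0.09 (adjusted p = 0.0021) and Psmd7 by 0.37 ± 0.08 (adjusted p = 0.00309). Psmd8 had 172, 159 and 159 CPM in CTNNB1_NFE2L2_MET, against 126, 115 and 108 CPM in NFE2L2_MET, with no overlap; 24.4% of all genes were likewise above in every library. Psmb5, Psmd10 and Psmd9 were not called, at 0.25 ± 0.09 (adjusted p = 0.0512), 0.10 ± 0.10 (adjusted p = 0.469) and -0.27 ± 0.13 (adjusted p = 0.128). CTNNB1_NFE2L2 against NFE2L2_MET, which shares the second group, gave 7 higher and 2 lower, where 18.3% and 18.9% of all genes were called. Psmd8 was at 0.68 ± 0.09 (adjusted p = 5.69e-05), Psmd11 at 0.54 ± 0.10 (adjusted p = 0.000786), Psmd5 at 0.50 ± 0.09 (adjusted p = 0.000574) and Psmc6 at -0.44 ± 0.12 (adjusted p = 0.0084). Psmd6 (Rpn7), a lid subunit, was the other member called lower, at -0.28 ± 0.10 (adjusted p = 0.0419). That call was lost with RLE factors (0.0658), DESeq2 (0.0614), no low-count filter (0.0598), the single-strand counts (0.167) or total-count scaling (0.862, log2 fold change 0.03) and without any 1 of 8 libraries. The Psmc6 call was lost without CTNNB1_NFE2L2 replicate 2 (adjusted p = 0.0531) and with total-count scaling (0.409), and 4 members in place of 7 were higher without CTNNB1_NFE2L2 replicate 2, NFE2L2_MET replicate 2 or NFE2L2_MET replicate 3.

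The comparison of CTNNB1_NFE2L2_MET with CTNNB1_NFE2L2 asks what hMET adds to both mutant genes. Here 2 members were higher and 1 lower, where 13.1% and 11.8% of all genes were called. Psmd5 was higher at 0.35 ± 0.09 (adjusted p = 0.0118), Psmc6 higher at 0.43 ± 0.12 (adjusted p = 0.0158) and Psmd9 lower at -0.43 ± 0.13 (adjusted p = 0.0234). Psmc6 had 60.0, 63.0 and 73.1 CPM in CTNNB1_NFE2L2_MET, against 53.8, 41.7 and 50.5 CPM in CTNNB1_NFE2L2. The Psmc6 call was lost without CTNNB1_NFE2L2_MET replicate 3 (0.0702) or CTNNB1_NFE2L2 replicate 2 (0.0876), and the Psmd9 call without replicate 2 or 3 of either group (0.0589, 0.065, 0.0897 and 0.103).

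Against WT liver, Psmd5, Psmb5 and Psmd10 were higher in the 3 models with mutant NFE2L2, and several ATPase genes were lower in all 4 models. The members called were 7 higher and 9 lower in CTNNB1_NFE2L2_MET (over all genes 26.5% and 23.4%), 6 higher and 8 lower in CTNNB1_NFE2L2 (over all genes 24.5% and 24.2%), 3 higher and 12 lower in NFE2L2_MET (over all genes 13.5% and 9.89%) and 0 higher and 11 lower in CTNNB1_MET (over all genes 11% and 6.22%). The 4 comparisons share the WT libraries. The members' median log2 fold change was -0.05 in CTNNB1_NFE2L2_MET, -0.12 in CTNNB1_NFE2L2, -0.18 in NFE2L2_MET and -0.19 in CTNNB1_MET, where the medians of all genes were -0.0187, -0.00791, -0.00433 and -0.00159. In that order the members' medians were 0.19, 0.07, -0.31 and -0.21 with total-count scaling, 0.17, 0.15, 0.03 and -0.05 with the unmapped share as a term and 0.01, -0.04, -0.14 and -0.10 with the added libraries left out. Psmd5 rose by 1.44 ± 0.09 in CTNNB1_NFE2L2_MET, 1.09 ± 0.09 in CTNNB1_NFE2L2 and 0.59 ± 0.09 in NFE2L2_MET (adjusted p = 1.82e-08, 2.51e-07 and 0.000422), and was at 0.23 ± 0.09 (adjusted p = 0.113) in CTNNB1_MET. WT livers had 26.2, 24.5 and 31.2 CPM of Psmd5, below all 9 libraries with mutant NFE2L2. Taken model by model, the share of all genes with every library above every WT library was 29.2% in CTNNB1_NFE2L2_MET, 27.8% in CTNNB1_NFE2L2 and 20.5% in NFE2L2_MET. Psmb5 rose by 0.93 ± 0.10, 0.80 ± 0.10 and 0.67 ± 0.10 in the same 3 models (adjusted p = 1.5e-06, 7.15e-06 and 0.000139), where WT had 25.9, 22.2 and 28.7 CPM, and was at 0.12 ± 0.10 (adjusted p = 0.428) in CTNNB1_MET. Psmd10 rose by 0.58 ± 0.10, 0.36 ± 0.10 and 0.48 ± 0.10 (adjusted p = 0.000226, 0.00945 and 0.00385), where WT had 11.7, 12.9 and 12.6 CPM, below all 9 libraries of those models. Psmd9 fell in CTNNB1_NFE2L2_MET, to 35.2, 34.0 and 33.2 CPM, against 48.8, 45.6 and 61.6 CPM in WT (log2 fold change -0.61 ± 0.13, adjusted p = 0.00117), and was at 0.19 ± 0.13 (adjusted p = 0.356) in CTNNB1_MET.

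The ATPase genes were lower than in WT in several models. Psmc2 had 77.7, 85.8 and 72.8 CPM in CTNNB1_NFE2L2_MET, 82.9, 75.1 and 83.1 CPM in CTNNB1_NFE2L2, 80.4, 77.1 and 85.2 CPM in NFE2L2_MET, 77.5, 80.1 and 87.4 CPM in CTNNB1_MET and 112, 102.8 and 104 CPM in WT. The 12 libraries of the 4 models were below the 3 of WT, with log2 fold changes of -0.43 ± 0.09, -0.40 ± 0.09, -0.39 ± 0.09 and -0.38 ± 0.09 in that order (adjusted p = 0.000852, 0.00157, 0.00527 and 0.00869). Taken model by model in that order, 25.7%, 26.3%, 16.6% and 14.2% of all genes were below WT in every library. Psmc4 and Psmc5 were also called lower in all 4 models, between -0.25 and -0.41. The Psmc4 call was lost in CTNNB1_NFE2L2_MET without WT replicate 2 (adjusted p = 0.0624) or its own replicate 1 (0.0764) or 3 (0.0684) and in CTNNB1_NFE2L2 without WT replicate 2 (0.0651) or its own replicate 2 (0.0808) or 3 (0.0503). The Psmc5 call was lost in NFE2L2_MET without any 1 of 5 libraries and in CTNNB1_MET without any 1 of 7. The 6 ATPases together made up 16.1%, 16.2% and 15.6% of member counts in CTNNB1_NFE2L2_MET, 16.3%, 15.4% and 16.0% in CTNNB1_NFE2L2, 17.3%, 17.7% and 16.9% in NFE2L2_MET, 16.6%, 17.0% and 18.0% in CTNNB1_MET and 19.02%, 19.6% and 18.4% in WT. Every WT library was above every other library, and the shares of other roles were not compared in this way. In CTNNB1_MET the largest decrease was in Psmd11, with 59.0, 57.3 and 69.8 CPM, against 86.4, 82.3 and 98.2 CPM in WT (log2 fold change -0.52 ± 0.10, adjusted p = 0.00306). Psmd11, Psmd14, Psma5, Psmd1 and Psmd2 were called higher in CTNNB1_NFE2L2_MET than in CTNNB1_MET, but none of them was called higher than in WT. Their mean CPM per kb were 46.3, 31.6, 53.3, 46.6 and 79.1 in CTNNB1_NFE2L2_MET. WT had 39.8, 29.4, 54.1, 45.4 and 83.0, and CTNNB1_MET had 27.7, 24.3, 43.8, 37.9 and 66.0, in that order. Total-count scaling moves the median of all genes to 0.22 in CTNNB1_NFE2L2_MET, 0.17 in CTNNB1_NFE2L2 and -0.13 in NFE2L2_MET. The counts of higher and lower members then read 15 and 1, 10 and 2, and 3 and 20. Over all genes the shares called higher and lower were then 37.1% and 13.4%, 31.97% and 15.1%, and 9.73% and 17.9%. The calls of Psmc2, Psmc4 and Psmc5 were lost with this scaling in CTNNB1_NFE2L2_MET (adjusted p = 0.111, 0.907 and 0.21) and in CTNNB1_NFE2L2 (0.0765, 0.544 and 0.101), where the log2 fold changes of Psmc4 were -0.02 and -0.08. The Psmc4 calls were also lost with the single-strand counts and with only the libraries of the comparison in CTNNB1_NFE2L2_MET (0.065 and 0.0946), CTNNB1_NFE2L2 (0.0776 and 0.0643) and CTNNB1_MET (0.0623 and 0.055), and in CTNNB1_NFE2L2_MET with the added libraries left out (0.103). With no low-count filter and with only the libraries of the comparison the Psmc5 calls were lost in NFE2L2_MET (0.0541 and 0.0556) and CTNNB1_MET (0.0569 and 0.117). With only the libraries of the comparison the Psmc2 call was lost in CTNNB1_MET (0.0509). Leaving out CTNNB1_MET replicate 1, CTNNB1_MET replicate 2, WT replicate 1, WT replicate 3 or NFE2L2_MET replicate 2 left 3, 4, 6, 7 and 7 members lower in CTNNB1_MET in place of 11, and 1 member was higher in place of 0 without WT replicate 3. That member is not identified here. With all libraries, Psmd5 had the smallest unadjusted p (edgeR, 0.0293) of the members above WT in CTNNB1_MET. In NFE2L2_MET 6 and 5 were lower in place of 12 without its replicates 2 and 3, in CTNNB1_NFE2L2_MET 5 in place of 9 without its replicate 1, and in CTNNB1_NFE2L2 5, 4 and 5 in place of 8 without WT replicate 1 or its own replicates 2 and 3. With the unmapped share as a term no member was called lower than in WT in any model, where 0.426% of all genes were called lower in CTNNB1_NFE2L2_MET, 1.29% in CTNNB1_NFE2L2, 0.0993% in NFE2L2_MET and 0.695% in CTNNB1_MET. Psmb5 and Psmd5 were still higher in CTNNB1_NFE2L2_MET and CTNNB1_NFE2L2 and Psmb5 in NFE2L2_MET.

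**Figure D4:**
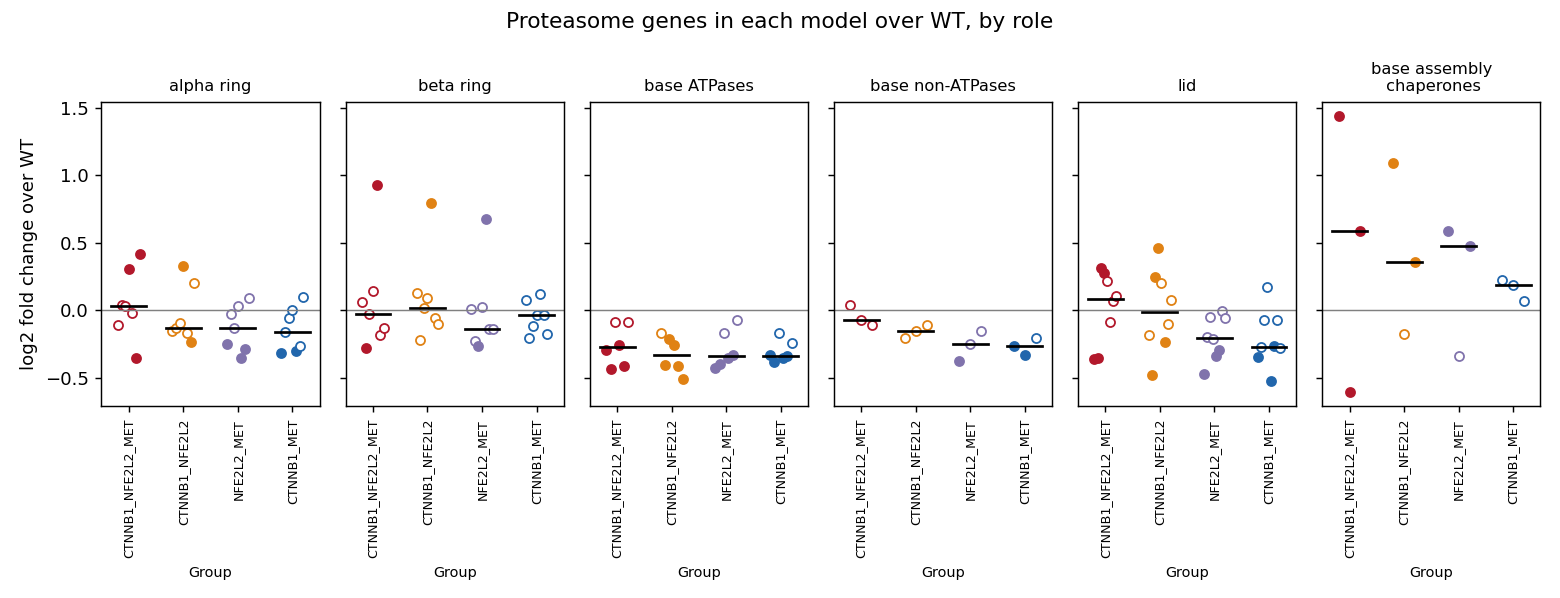
Log2 fold change over WT of each member in each of the 4 models, by role; filled points passed the test, open points did not, and the black line is the median of the role. The ATPases lie below 0 in all 4 models, and Psmd5 and Psmb5 stand above the other members in the 3 NFE2L2 models.

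The genes around the proteasome were read from lists of related genes in the same fit. List counts in CTNNB1_NFE2L2_MET against CTNNB1_MET stand beside 18.4% of all genes called higher and 15.4% lower. The interferon-inducible catalytic subunits that replace the constitutive ones in the immunoproteasome are no members: Psmb8 had 87.8, 76.0 and 86.5 CPM in CTNNB1_NFE2L2_MET, 30.6, 28.5 and 30.3 CPM in CTNNB1_NFE2L2, 47.5, 47.1 and 51.4 CPM in NFE2L2_MET, 93.8, 68.6 and 86.6 CPM in CTNNB1_MET and 22.8, 38.6 and 18.3 CPM in WT. Every CTNNB1_NFE2L2_MET and CTNNB1_MET library was above every CTNNB1_NFE2L2 and WT library. Taken model by model in that order, 29.2% and 18.4% of all genes were above WT in every library. Above CTNNB1_NFE2L2 in every library were 23.5% and 25.4%. Psmb8 was at 0.01 ± 0.19 (adjusted p = 0.982) in CTNNB1_NFE2L2_MET against CTNNB1_MET and 1.49 ± 0.20 (adjusted p = 0.000194) in CTNNB1_NFE2L2_MET against CTNNB1_NFE2L2. Psmb9 changed by 1.20 ± 0.19 (adjusted p = 0.000625) and Psmb10 by 0.28 ± 0.17 (adjusted p = 0.241) in CTNNB1_NFE2L2_MET against CTNNB1_NFE2L2. Among the activators and the inhibitor of the core, 3 of 5 rose in CTNNB1_NFE2L2_MET against CTNNB1_MET: Psme4 by 0.47 ± 0.10 (adjusted p = 0.0026), Psme1 by 0.34 ± 0.11 (adjusted p = 0.0241) and Psme3 by 0.26 ± 0.09 (adjusted p = 0.0383), while Psme2 was at 0.27 ± 0.11 (adjusted p = 0.0635) and the inhibitor Psmf1 at 0.25 ± 0.10 (adjusted p = 0.0603). Of the 5 core assembly chaperones none was called, with Psmg2 at 0.28 ± 0.11 (adjusted p = 0.0615), Psmg3 at 0.20 ± 0.11 (adjusted p = 0.2), Psmg1 at -0.11 ± 0.10 (adjusted p = 0.389), Psmg4 at -0.25 ± 0.15 (adjusted p = 0.213) and Pomp at 0.08 ± 0.10 (adjusted p = 0.577). Of these, 1 had an unadjusted p under 0.05 and DESeq2 called 0. Total-count scaling called 3 of them higher, where 35.25% of all genes were. A term for the added libraries called 1 higher, where 18.28% of all genes were. Of 12 proteasome-bound proteins, 3 rose and 0 fell, led by the shuttle Ubqln2 at 0.91 ± 0.14 (adjusted p = 0.000184) and the deubiquitinase Usp14 at 0.36 ± 0.11 (adjusted p = 0.0218). Leaving out 1 library ended the call of Psme1 (adjusted p = 0.069 without CTNNB1_NFE2L2_MET replicate 1 and 0.109 without CTNNB1_MET replicate 2), of Usp14 (any 1 of 4 libraries, up to 0.08) and of Psme3 (any 1 of 6, up to 0.16). The single-strand counts ended the calls of Psme1 (0.0628) and Usp14 (0.107), the added libraries left out those of Usp14 (0.0591) and Psme3 (0.0534), and no low-count filter and only the libraries of the comparison that of Psme3 (0.0649 and 0.059).

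Nfe2l1, the gene of NRF1, was at -0.09 ± 0.12 (adjusted p = 0.573) in CTNNB1_NFE2L2_MET against CTNNB1_MET. Over all genes 18.4% were called higher and 15.4% lower in that comparison. Of the 10 genes of NRF1 and its processing, Vcp, the ATPase that extracts NRF1 from the endoplasmic reticulum, rose by 0.47 ± 0.11 (adjusted p = 0.00328), and Ddi2, the protease that cleaves it, fell, with a log2 fold change of -0.59 ± 0.15 (adjusted p = 0.00589). Ddi2 had 24.4, 24.6 and 25.6 CPM in CTNNB1_NFE2L2_MET, 28.8, 22.2 and 25.7 CPM in CTNNB1_NFE2L2, 41.4, 50.5 and 41.4 CPM in NFE2L2_MET, 32.5, 35.3 and 44.2 CPM in CTNNB1_MET and 48.0, 52.2 and 67.6 CPM in WT. Every library of the 2 models that carry both mutant genes was below every other library. Against WT Ddi2 was at -1.17 ± 0.15 (adjusted p = 1.05e-05) in CTNNB1_NFE2L2_MET and -1.13 ± 0.15 (adjusted p = 1.61e-05) in CTNNB1_NFE2L2. Taken model by model in that order, 25.7% and 26.3% of all genes were below WT in every library. No share was computed for the 2 models together against all other libraries. Of 9 genes of NRF2 control and its partners, 3 rose and 1 fell: Mafk, a small MAF partner, was at 0.70 ± 0.12 (adjusted p = 0.000429), Keap1 at 0.34 ± 0.10 (adjusted p = 0.0118) and Nfe2l3 at -1.91 ± 0.44 (adjusted p = 0.00394). Of 20 NRF2 target genes outside the proteasome, 19 rose, with a median of 2.61 against 0.12 for the proteasome members; Nqo1 was at 4.88 ± 0.19 (adjusted p = 2.58e-10) and Srxn1 at 4.74 ± 0.24 (adjusted p = 6.1e-09). In the remaining lists the counts of genes that rose were near or below the 18.4% of all genes called higher. Of 9 Vcp cofactors 1 rose (Nsfl1c at 0.41 ± 0.09, adjusted p = 0.00309) and 1 fell (Ube4b at -0.35 ± 0.12, adjusted p = 0.0301). Of 6 ubiquitin and E1 genes 1 rose, Uba6 at 0.67 ± 0.17 (adjusted p = 0.00766), with Ubb at -0.21 ± 0.12 (adjusted p = 0.218). Of 12 heat shock genes 1 rose, Hspb1 at 1.71 ± 0.33 (adjusted p = 0.00173), with Hsp90aa1 at 0.63 ± 0.26 (adjusted p = 0.0815). Of 7 autophagy receptors 1 rose, Sqstm1 at 0.66 ± 0.16 (adjusted p = 0.00497), and 3 fell, among them Calcoco1 at -0.57 ± 0.12 (adjusted p = 0.0018). The Keap1 call was lost without CTNNB1_NFE2L2_MET replicate 1 (adjusted p = 0.071) or CTNNB1_MET replicate 2 (0.0515). The Ube4b call was lost without any 1 of 4 libraries (up to 0.165). With total-count scaling the Ddi2 and Ube4b calls were lost (0.063 and 0.645), and the Ube4b call also with only the libraries of the comparison (0.0731) or the added libraries left out (0.317). With the unmapped share as a term, Nqo1 and Srxn1 alone of the related genes named for CTNNB1_NFE2L2_MET against CTNNB1_MET were still called.

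Markers of dividing cells and of several cell types moved with the groups. In CTNNB1_NFE2L2_MET against CTNNB1_MET, 16 of 16 cell cycle genes were higher and 0 lower, 9 of 10 macrophage markers were higher and 0 lower, 0 of 11 hepatocyte markers were higher and 9 lower, 1 of 7 T and NK cell markers were higher and 0 lower, 2 of 5 cholangiocyte markers were higher and 0 lower, and of B cell (5 tested), endothelium (7) and stellate cell (7) markers edgeR called none, with 0, 1 and 1 at an unadjusted p under 0.05 and 0, 0 and 1 called higher by DESeq2. For these last 3 lists, total-count scaling called 0, 2 and 2 higher, where 35.25% of all genes were. With the added libraries left out, 0, 0 and 2 were called higher, where 15.72% of all genes were. In the main fit 18.4% of all genes were called higher and 15.4% lower, and DESeq2 called 18.5% higher. The 1 of 7 T and NK cell markers is near the share of all genes called higher. Summed cell cycle CPM ranged over 388 to 523 in CTNNB1_NFE2L2_MET, 323 to 377 in CTNNB1_NFE2L2, 86.3 to 135 in NFE2L2_MET, 159.9 to 187 in CTNNB1_MET and 68.8 to 70.8 in WT. Mki67, a marker of dividing cells, was at 1.53 ± 0.20 (adjusted p = 4.58e-05) in CTNNB1_NFE2L2_MET against CTNNB1_MET and at -1.91 ± 0.21 (adjusted p = 2.36e-05) in NFE2L2_MET against CTNNB1_MET. Summed macrophage CPM ranged over 646 to 914 in CTNNB1_NFE2L2_MET, 584 to 828 in CTNNB1_NFE2L2, 603 to 664 in NFE2L2_MET, 394 to 480.2 in CTNNB1_MET and 266 to 319.7 in WT. Summed T and NK cell CPM ranged over 8.61 to 11.1 in CTNNB1_NFE2L2_MET, 3.28 to 6.52 in CTNNB1_NFE2L2, 4.46 to 6.72 in NFE2L2_MET, 7.72 to 9.76 in CTNNB1_MET and 4.33 to 4.94 in WT. The part of these markers in the members' values was not tested.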

How the data were processed

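PolyA liver RNA of 15 libraries, 3 in each of 5 groups, was sequenced. Reads were trimmed with Trimmomatic and aligned to mm10 with STAR, per the submitters' processing notes, with versions not given in the sources used here. The authors deposited raw counts per gene for each library, as STAR writes them. The unstranded column was used, because the 2 strand columns held nearly equal counts. STAR counts reads that align to 1 place only, so any reads shared with processed pseudogenes, such as those of Psma5, Psmb5, Psmb6 and Psmb7, are missing from these counts. How many reads each member lost in this way was not tested. The summary lines for unmapped, multimapping, unassigned and ambiguous reads stayed out of the library sizes. Groups were taken from the sample labels.

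Counts were tested with edgeR 4.0.16 in R 4.3.3 (limma 3.58.1): filterByExpr by group, TMM factors, 1 coefficient per group over all 15 libraries, robust quasi-likelihood F tests of 10 comparisons, and Benjamini-Hochberg adjustment over 14098 genes with a threshold of 0.05. The SE is the absolute log2 fold change over the square root of F. CPM use TMM library sizes. The procedure was tested on simulated data. Alternatives were RLE factors, total-count scaling, no low-count filter, 1 strand column, DESeq2 1.42.0, only the libraries of the comparison, a term for or omission of the libraries marked as added, a term for the unmapped share, and each library left out. The precision of a level is limited by counting error and by 3 libraries a group.

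Members and gene lists were chosen with earlier results of these data known. Every member may be named; those given in full are the catalytic subunits and, in each role, the 2 smallest and the largest p in CTNNB1_NFE2L2_MET against CTNNB1_MET, and of each related list the 2 smallest p, or all of up to 5 genes. Psmd8, Psmc2 and Psmd6 were added after their values were seen. Gene positions are from GENCODE (GRCm38), kilobases are those of the principal transcripts, and promoters are from RefSeq (GRCm38.p6).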

Additional observations from a re-analysis of the deposited data

How the results depend on the processing

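The number of members called depended on the processing more than their direction did. For each alternative only the larger moves in these counts are listed, so comparisons not listed also lost calls. With the added libraries left out, Psma1, Psma6, Psmb3 and Psmd11 lost their calls in NFE2L2_MET against WT (adjusted p = 0.0974, 0.125, 0.172 and 0.0769). Psmb2, Psmc1 and Psmc4 lost theirs in CTNNB1_NFE2L2_MET against WT (0.278, 0.12 and 0.103). With RLE size factors, the members called were 0 lower in CTNNB1_NFE2L2 against CTNNB1_MET (main 1) and 1 lower in CTNNB1_NFE2L2 against NFE2L2_MET (main 2). Of all genes 16.09% and 17.65% were then called lower, in that order. With total-count scaling, the members called were 15 higher in CTNNB1_NFE2L2_MET against WT (main 7), 1 lower in CTNNB1_NFE2L2_MET against WT (main 9), 10 higher in CTNNB1_NFE2L2 against WT (main 6), 2 lower in CTNNB1_NFE2L2 against WT (main 8), 20 lower in NFE2L2_MET against WT (main 12), 25 higher in CTNNB1_NFE2L2_MET against CTNNB1_MET (main 11), 20 higher in CTNNB1_NFE2L2 against CTNNB1_MET (main 8), 0 lower in CTNNB1_NFE2L2 against CTNNB1_MET (main 1), 1 higher in NFE2L2_MET against CTNNB1_MET (main 3), 32 higher in CTNNB1_NFE2L2_MET against NFE2L2_MET (main 8), 28 higher in CTNNB1_NFE2L2 against NFE2L2_MET (main 7) and 0 lower in CTNNB1_NFE2L2 against NFE2L2_MET (main 2). The share of all genes called higher was then 28.68% in CTNNB1_NFE2L2 and 4.838% in NFE2L2_MET against CTNNB1_MET, and 36.56% in CTNNB1_NFE2L2 against NFE2L2_MET. Called lower in CTNNB1_NFE2L2 were 9.221% against CTNNB1_MET and 8.051% against NFE2L2_MET. Shares for the other comparisons with that scaling are given above. With no low-count filter, the members called were 5 lower in CTNNB1_NFE2L2 against WT (main 8), 7 lower in CTNNB1_MET against WT (main 11), 0 lower in CTNNB1_NFE2L2 against CTNNB1_MET (main 1) and 1 lower in CTNNB1_NFE2L2 against NFE2L2_MET (main 2). Of all genes 16.45%, 3.692%, 11.38% and 12.9% were then called lower, in that order. With the single-strand counts, the members called were 4 lower in CTNNB1_NFE2L2 against WT (main 8), 1 higher in CTNNB1_MET against WT (main 0), 7 lower in CTNNB1_MET against WT (main 11), 0 lower in CTNNB1_NFE2L2 against CTNNB1_MET (main 1) and 1 lower in CTNNB1_NFE2L2 against NFE2L2_MET (main 2). The shares of all genes called in these directions were 21.39%, 9.01%, 5.246%, 14.68% and 15.93%, in that order. With DESeq2, the members called were 0 lower in CTNNB1_NFE2L2 against CTNNB1_MET (main 1) and 1 lower in CTNNB1_NFE2L2 against NFE2L2_MET (main 2). Of all genes DESeq2 called 16.63% and 18.02% lower, in that order. With only the libraries of the comparison, the members called were 4 lower in CTNNB1_NFE2L2_MET against WT (main 9), 4 lower in CTNNB1_NFE2L2 against WT (main 8), 6 lower in NFE2L2_MET against WT (main 12) and 1 lower in CTNNB1_MET against WT (main 11). Of all genes 18.6%, 19.85%, 6.097% and 3.629% were then called lower, in that order. With a term for the added libraries, the members called were 0 lower in CTNNB1_NFE2L2 against CTNNB1_MET (main 1), where 16.25% of all genes were. With the added libraries left out, the members called were 5 lower in CTNNB1_NFE2L2 against WT (main 8), 1 higher in CTNNB1_MET against WT (main 0) and 6 lower in CTNNB1_MET against WT (main 11). The shares of all genes called in these directions were 22.24%, 9.015% and 6.001%, in that order. With a term for the unmapped share, the members called were 2 higher in CTNNB1_NFE2L2_MET against WT (main 7), 0 lower in CTNNB1_NFE2L2_MET against WT (main 9), 2 higher in CTNNB1_NFE2L2 against WT (main 6), 0 lower in CTNNB1_NFE2L2 against WT (main 8), 1 higher in NFE2L2_MET against WT (main 3), 0 lower in NFE2L2_MET against WT (main 12), 0 lower in CTNNB1_MET against WT (main 11), 2 higher in CTNNB1_NFE2L2_MET against CTNNB1_MET (main 11), 0 lower in CTNNB1_NFE2L2_MET against CTNNB1_MET (main 1), 3 higher in CTNNB1_NFE2L2 against CTNNB1_MET (main 8), 0 lower in CTNNB1_NFE2L2 against CTNNB1_MET (main 1), 1 higher in NFE2L2_MET against CTNNB1_MET (main 3), 0 lower in NFE2L2_MET against CTNNB1_MET (main 2) and 1 lower in CTNNB1_NFE2L2 against NFE2L2_MET (main 2). With 1 library left out at a time, the counts ranged over 6 to 8 higher and 5 to 9 lower in CTNNB1_NFE2L2_MET against WT, 5 to 7 higher and 4 to 8 lower in CTNNB1_NFE2L2 against WT, 3 to 3 higher and 5 to 12 lower in NFE2L2_MET against WT, 0 to 1 higher and 3 to 13 lower in CTNNB1_MET against WT, 8 to 12 higher and 1 to 1 lower in CTNNB1_NFE2L2_MET against CTNNB1_MET, 5 to 8 higher and 0 to 1 lower in CTNNB1_NFE2L2 against CTNNB1_MET, 1 to 3 higher and 0 to 2 lower in NFE2L2_MET against CTNNB1_MET, 6 to 10 higher and 0 to 0 lower in CTNNB1_NFE2L2_MET against NFE2L2_MET, 4 to 8 higher and 0 to 2 lower in CTNNB1_NFE2L2 against NFE2L2_MET, 1 to 3 higher and 0 to 1 lower in CTNNB1_NFE2L2_MET against CTNNB1_NFE2L2. 10 member calls turned their sign, none of them past the threshold: with the unmapped share as a term the log2 fold changes were Psma6 0.145 in CTNNB1_NFE2L2_MET against WT, Psmb2 0.193 in CTNNB1_NFE2L2_MET against WT, Psmd6 0.320 in CTNNB1_NFE2L2_MET against WT, Psma6 0.250 in CTNNB1_NFE2L2 against WT, Psmc3 0.0268 in CTNNB1_NFE2L2 against WT, Psmd12 0.183 in CTNNB1_NFE2L2 against WT, Psmd6 0.171 in CTNNB1_NFE2L2 against WT, Psma6 0.0844 in NFE2L2_MET against WT, Psmd12 0.0260 in NFE2L2_MET against WT, and with total-count scaling Psmd6 was 0.0267 in CTNNB1_NFE2L2 against NFE2L2_MET. The unmapped share differs with the groups, so a term for it also takes up group differences. With this term the shares of all genes called higher were 1.69% in CTNNB1_NFE2L2_MET, 3.02% in CTNNB1_NFE2L2 and 0.901% in NFE2L2_MET against WT. Against CTNNB1_MET they were 2.58%, 6.37% and 3.66%, and the shares called lower 1.51%, 5.21% and 3.88%, in the same order. In CTNNB1_NFE2L2 against NFE2L2_MET 14.86% were called lower. The shares called lower than WT are given above. The cause of the remaining changes was not tested. Members not called were not followed under the alternatives. Shares of all genes are not given for the runs with 1 library left out. No paired analysis was possible because replicates were numbered here by accession and nothing in the sources ties a library to one in another group.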
